A study of Mus musculus with 16 samples.

Results

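The 9 genes described here encode the perilipins (Plin1, Plin2, Plin3, Plin4 and Plin5) and 4 further lipid droplet proteins (Cidec, Bscl2, Fitm1 and Fitm2). They were chosen by name, found by their symbols in the deposited tables and joined by Ensembl identifier to the count table, which holds 55487 genes. RNA was sequenced from the inguinal fat pad, a white depot under the skin of the groin, of male mice aged 6 to 7 months. The 4 groups were whole-body Kmo knockout mice on a high-fat diet (KO HFD), wild-type mice on the same diet (WT HFD), knockout mice on chow (KO chow) and wild-type mice on chow (WT chow), with 4 samples each. The wild-type mice were littermates of the knockouts. Kmo encodes kynurenine 3-monooxygenase, an enzyme of tryptophan breakdown; the sources used here do not describe the allele or the composition and length of the diet. The knockout is in every cell of the body, so an effect within the fat cell cannot be told apart from one outside it.

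An adipocyte stores triglyceride in a single large droplet bounded by a phospholipid monolayer. Perilipins coat that surface and set how easily lipases reach the lipid: Plin1 is the main coat protein of adipocytes and holds back lipolysis until it is phosphorylated, Plin2 and Plin3 are found on droplets of most cell types, Plin4 on small nascent droplets, and Plin5 in tissues that burn fat. Cidec, also called FSP27, moves lipid from smaller to larger droplets where they touch. Bscl2 encodes seipin, and Fitm1 and Fitm2 are membrane proteins of the endoplasmic reticulum; these act where droplets are made.

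The promoters of Cidec, Bscl2 and Fitm2 are shown because these were the 3 genes of the 9 that were higher on HFD when both genotypes were joined in a single comparison. Each run holds the 250 bases before an annotated RefSeq start on GRCm38.p6, the build of the count table, written 5′ to 3′ on the strand of the gene, with capitals for motif matches found by search. Cidec has 2 such starts on the minus strand of chromosome 6, with windows chr6:113435761-113436010 for the first and chr6:113434765-113435014 for the second. Bscl2 has 3 starts on the plus strand of chromosome 19, of which the first, the first base of the counted gene, is shown, with the window chr19:8837217-8837466. The window of Fitm2 is chr2:163472630-163472879 on the minus strand.
Cidec first start: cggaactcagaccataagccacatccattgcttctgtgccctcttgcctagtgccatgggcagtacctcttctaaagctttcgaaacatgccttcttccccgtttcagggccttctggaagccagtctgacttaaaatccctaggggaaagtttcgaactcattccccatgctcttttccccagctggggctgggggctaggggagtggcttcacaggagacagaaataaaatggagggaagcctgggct
Cidec second start: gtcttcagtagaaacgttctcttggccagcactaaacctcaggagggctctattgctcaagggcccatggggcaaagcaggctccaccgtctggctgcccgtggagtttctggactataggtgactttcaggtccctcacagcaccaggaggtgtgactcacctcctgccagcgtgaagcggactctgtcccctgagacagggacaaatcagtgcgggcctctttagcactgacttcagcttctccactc
Bscl2 first start: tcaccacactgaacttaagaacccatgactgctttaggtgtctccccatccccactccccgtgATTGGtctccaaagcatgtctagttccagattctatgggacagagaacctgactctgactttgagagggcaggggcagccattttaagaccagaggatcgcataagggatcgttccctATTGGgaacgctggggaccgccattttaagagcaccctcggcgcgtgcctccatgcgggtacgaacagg
Fitm2: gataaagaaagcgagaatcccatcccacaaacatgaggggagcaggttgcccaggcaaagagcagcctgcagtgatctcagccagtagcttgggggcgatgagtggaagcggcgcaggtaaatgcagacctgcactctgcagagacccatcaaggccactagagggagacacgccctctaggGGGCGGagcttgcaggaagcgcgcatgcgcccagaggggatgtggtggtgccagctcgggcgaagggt

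Both strands were searched for AGGTCA (bound by nuclear receptors), its direct repeat with 1 base between the copies, CACGTG (an E-box), GGGCGG (a GC box), CCAAT and TATAAA. The window of the first Bscl2 start held 2 CCAAT boxes, both on the opposite strand and so read as ATTGG, whose first letters lie 187 and 69 bases before the start. The second Bscl2 start, not shown, had 1 AGGTCA in its window and no other match, and the third had none of the motifs. The Fitm2 window held 1 GC box, at 68 bases before the start. Neither Cidec window held any of the 6 motifs. Among 32851 promoter windows of the same length, 33.8% held a CCAAT box, 32.7% a GC box, 14% an AGGTCA, 12.4% a TATA box, 6.02% an E-box and 0.0335% the direct repeat. The 3 genes shared no matched motif.

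Each library held between 13824404 and 16909361 read pairs counted to genes, the smallest being KO HFD replicate 1. Kmo checked the labels: it had 1 to 2 counts in KO HFD and 42 to 215 in WT HFD libraries, and 2 to 8 in KO chow and 40 to 298 in WT chow libraries. Summed levels of 10 adipocyte genes ran from 24327 to 43498 CPM (counts scaled to a common library size with edgeR), with none of the 10 at 0 in any group. Adipocyte RNA was thus present in every group, while the depot itself was not checked. RNA of other tissues varied between libraries. The sum of 15 skeletal muscle genes ran from 129 to 6169 CPM and that of 10 T cell genes from 8.12 to 431 CPM. By the count table's header, 4 libraries were read on a single sequencing lane: KO HFD replicate 1 on lane 4, and WT HFD replicate 3, WT HFD replicate 4 and WT chow replicate 2 on lane 6. Headers of the other 12 are marked merged and name no lane.

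To set the genes side by side, CPM was divided by exon length in kilobases. Cidec was the most abundant at a mean of 1652 CPM per kb over 16 libraries, above every other member in 16 of 16. Plin1 and Plin4 followed at 514 and 502 CPM per kb, and Plin1 lay above Plin4 in only 9 of 16 libraries, so these neighbours did not differ beyond their spread. Plin2 averaged 235 CPM per kb, the ER proteins Fitm2 and Bscl2 64.3 and 53.6 CPM per kb, and each stood above the next gene in 16 of 16 libraries. Plin3 at 22.3 and Plin5 at 20.4 CPM per kb were again close, with Plin3 higher in 11 of 16. Fitm1 was near the floor at 0.842 CPM per kb.

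**Figure D1:**
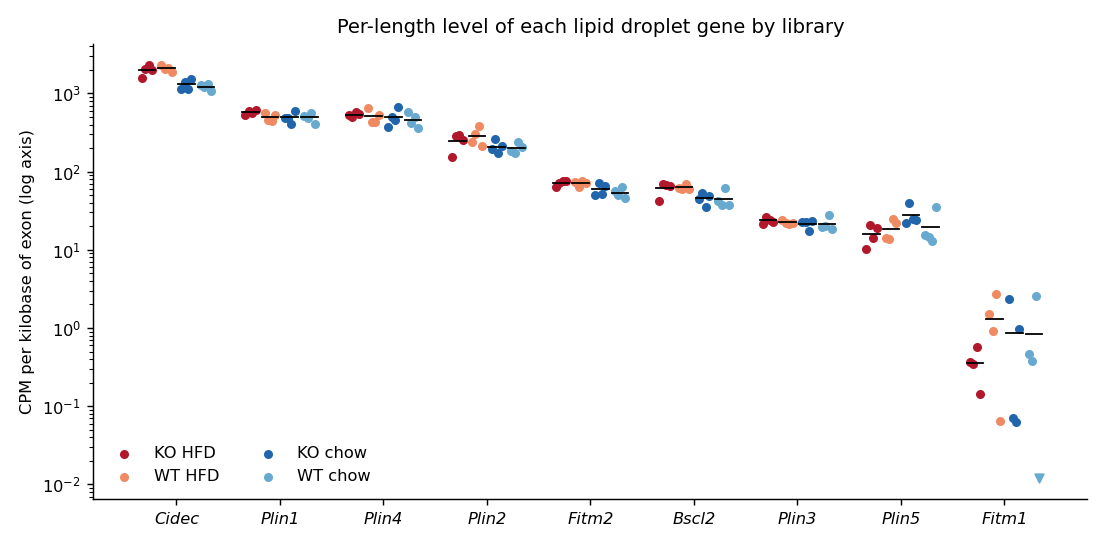
Per-length level (CPM per kilobase of exon, log axis) of each gene, from the highest mean on the left to the lowest on the right; points are libraries, black bars are group means (n = 4), and a triangle marks a library with 0 counts. Cidec stands at 1059 to 2330 CPM per kb in every library and Fitm1 at 0 to 2.74.

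Among the perilipins themselves, Plin1 and Plin4 made up most of the summed level in every group. Plin1 made up 41.2% of summed perilipin level per length in KO HFD, 37% in WT HFD, 39.6% in KO chow and 41.2% in WT chow, and Plin4 between 38.3% and 39.6% in every group. Plin2 supplied 17.5% in KO HFD, 21.6% in WT HFD and 16.9% in both chow groups. Plin3 stayed between 1.69% and 1.79%. Plin5 supplied 1.13% in KO HFD (0.825% to 1.44%), 1.41% in WT HFD (0.951% to 1.9%), 2.23% in KO chow (1.56% to 3.05%) and 1.72% in WT chow (0.957% to 3.42%). These shares were not tested, and Plin5 itself was not called between diets in KO (adjusted p = 0.135 by edgeR). Plin3, Plin4 and Plin5 lie on chromosome 17 on the minus strand, and only 1798 bases separate Plin5 (56111601 to 56117596) from Plin4 (56100591 to 56109803).

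The diet comparison asks what a high-fat diet did to these genes in each genotype, and Cidec was the 1 member that changed in both. Its gene lies on chromosome 6 at 113424634 to 113435760, minus strand. In WT samples it had 4324, 3852, 3961 and 3487 CPM on HFD against 2368, 2241, 2438 and 1965 CPM on chow. Every HFD library lay above every chow library. The log2 fold change was 0.79 ± 0.15 (SE; 1.73-fold, 95% interval 1.38 to 2.18), with an adjusted p of 0.00713 in edgeR's quasi-likelihood test with Benjamini-Hochberg adjustment over 16549 genes. In KO samples it had 2883, 3850, 4287 and 3681 CPM on HFD against 2114, 2617, 2126 and 2865 CPM on chow, and again no libraries overlapped. There the log2 fold change was 0.60 ± 0.15 (SE; 1.51-fold, 1.2 to 1.9), adjusted p = 0.0228 by edgeR. In a bulk sample fewer cells of a type and less RNA per cell cannot be told apart. Groups without overlap and higher on HFD held for 10% of all genes in WT and 10.2% in KO. Of all genes tested, 11.8% were called in WT and 12.5% in KO, so 1 of 9 members is near the background in either genotype. The interaction of genotype and diet for Cidec was -0.20 (log2, 95% interval -0.66 to 0.27). The KO call was lost on leaving out KO chow replicate 1, KO chow replicate 3, and KO HFD replicates 2, 3 and 4 in turn. The adjusted p was then 0.0562, 0.0758, 0.0692, 0.082 and 0.0529 by edgeR, at log2 fold changes of 0.54, 0.54, 0.57, 0.52 and 0.60. Those fits called 1796, 785, 745, 824 and 1062 of all genes in KO, against 2071 on all libraries. With the replicate number as a block the log2 fold change was 0.59 (adjusted p = 0.0615 by edgeR), and 1126 genes were called. Over both genotypes Cidec was 1.62-fold higher on HFD (log2 0.70 ± 0.11 SE), adjusted p = 4.18e-04 by edgeR, with 8 of 8 HFD libraries above all chow libraries, as held for 4.33% of all genes. Against Plin1, Cidec per length ran from 2.92 to 4.08 in KO HFD, from 3.59 to 4.83 in WT HFD, from 2.33 to 2.93 in KO chow and from 2.31 to 2.59 in WT chow.

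**Figure D2:**
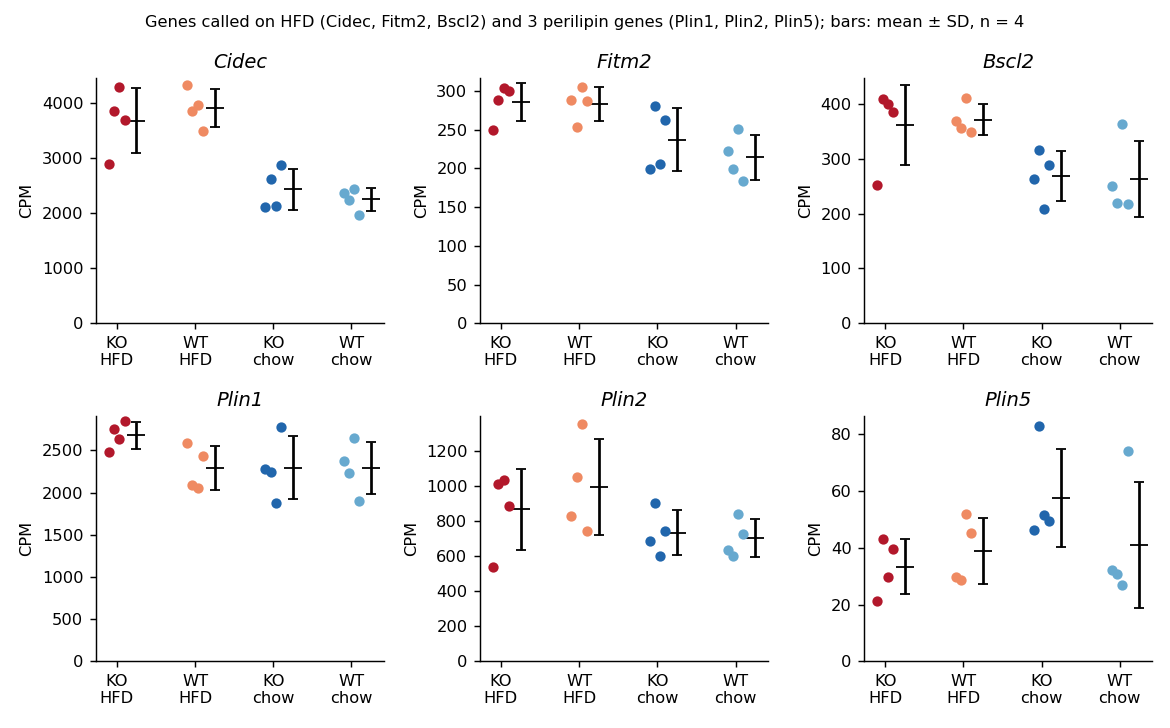
CPM by library for the 3 genes higher on HFD over both genotypes (Cidec, Fitm2 and Bscl2) and for Plin1, Plin2 and Plin5; bars are mean ± SD (n = 4) and axes start at 0. All HFD libraries of Cidec lie at 2883 CPM or more and all chow libraries at 2865 or less.

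Fitm2, which binds fat in the ER during droplet formation, and Bscl2, whose protein seipin marks the site where droplets emerge, were called by edgeR only when both genotypes were joined. There 3 of 9 members were called, against 33.1% of all genes, so that share is near the background too. Fitm2 lies on chromosome 2 at 163466379 to 163472629, minus strand. It had 250.1, 288, 304 and 299.6 CPM in KO HFD, 288, 253, 305 and 287 in WT HFD, 199, 281, 206 and 262 in KO chow and 223, 199.5, 251 and 184 in WT chow. The WT groups did not overlap, as held in this direction for 10% of all genes, while 3 of 4 KO HFD libraries exceeded all KO chow libraries. Over both genotypes Fitm2 rose by 0.34 ± 0.09 (log2, SE; 1.26-fold), adjusted p = 0.0119 by edgeR; the adjusted p was 0.0553 in WT and 0.178 in KO. Bscl2 lies on chromosome 19 at 8837467 to 8848683, plus strand. It had 252, 408, 399 and 384 CPM in KO HFD, 368, 356, 411 and 349 in WT HFD, 263, 315, 209 and 289 in KO chow and 251, 219, 363 and 218 in WT chow. KO HFD replicate 1 was the lowest HFD library, within the range of chow, and WT chow replicate 3 the highest chow library. Bscl2 rose by 0.46 ± 0.13 over both genotypes (log2, SE; 1.38-fold), adjusted p = 0.0143 by edgeR, against 0.0872 in WT and 0.138 in KO. Fitm2 in WT was called with DESeq2 (adjusted p = 0.0259), limma-voom (0.0358), the lymphoid covariate (0.0376) and without KO chow replicate 2 (0.0412), and in KO with limma-voom (0.0478). Limma-voom also called Bscl2 in WT (0.0304) and in KO (0.0274). Without KO HFD replicate 1 Bscl2 was called in KO (log2 0.56, adjusted p = 0.0432 by edgeR), and without WT chow replicate 3 Fitm2 and Bscl2 were called in WT (adjusted p = 0.0302 and 0.0187). Restricted to the libraries marked merged, Fitm2 over both genotypes kept a log2 fold change of 0.32 but lost its call (adjusted p = 0.062 by edgeR). Cidec in WT lost its call too, at 0.87 (adjusted p = 0.056), while Plin2 over both genotypes gained one at 0.40 (adjusted p = 0.0475). That restriction dropped 2 of 4 WT HFD libraries, 1 of 4 WT chow and 1 of 4 KO HFD. All genes called in WT fell to 225, against 1957 on all libraries. Bscl2 shares 398 exon bases with Gng3 and Fitm2 shares 227 with 2310001K24Rik, both on the opposite strand; counting ignored strand, and these partners held at most 24 and 29 counts a library.

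Marker genes of cell types were also compared between diets. Among 10 adipocyte genes, 2 were called higher and 3 lower on HFD over both genotypes by edgeR. Over both genotypes edgeR called 4 of 10 endothelial genes and 3 of 10 progenitor and fibroblast genes higher on HFD. It also called 2 of 10 macrophage genes and 2 of 10 lipid-associated macrophage genes higher. None of these 4 lists held a gene called lower. Of all genes tested, 17.1% were called higher in this comparison, so 2 of 10 is near the background. The progenitor sum was 5523 to 7284 CPM in KO HFD and 4307 to 8664 in WT HFD, against 2534 to 5606 in KO chow and 2758 to 6687 in WT chow. The endothelial sum was 754 to 1370 CPM in KO HFD and 712 to 1190 in WT HFD, against 721 to 1025 in KO chow and 604 to 952 in WT chow. The macrophage sum was 1031 to 1488 CPM in KO HFD and 943 to 1775 in WT HFD, against 784 to 1726 in KO chow and 833 to 2093 in WT chow. The lipid-associated macrophage sum, whose list shares Lpl with adipocytes, was 12052 to 18354 CPM in KO HFD and 13685 to 18226 in WT HFD, against 10133 to 15424 in KO chow and 8538 to 16174 in WT chow. The part of these cells in the values of Cidec, Fitm2 and Bscl2 was not tested. The B cell sum was 1251 to 1819 CPM in KO HFD and 864 to 2046 in WT HFD, against 352 to 1104 in KO chow and 539.5 to 1549 in WT chow. Of 10 B cell genes 1 was called, higher, while the median log2 fold change of the list was -1.01 over both genotypes. The T cell sum was 12.4 to 169.9 CPM in KO HFD and 8.12 to 109.6 in WT HFD, against 19.7 to 398 in KO chow and 12 to 431 in WT chow. In the diet comparisons 0 of 10 T cell genes were called, though the median log2 fold change of the list was -2.01 over both genotypes. With a lymphoid score (both lists) as covariate the diet log2 fold changes over both genotypes were 0.61 for Cidec, 0.23 for Fitm2 and 0.32 for Bscl2, all still called (adjusted p = 3.02e-04, 0.00988 and 0.0136 by edgeR).

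Of the perilipins, edgeR called none in any diet comparison on all libraries. Plin2, the coat protein found on droplets of most cells, had 537, 1016, 1038 and 889 CPM in KO HFD, 833, 1056, 1358 and 743 in WT HFD, 689, 906, 602 and 742 in KO chow and 639, 603, 844 and 730.1 in WT chow. Its highest libraries were on HFD, but the lowest of all, KO HFD replicate 1, was too. The log2 fold change over both genotypes was 0.37 ± 0.16 (SE), adjusted p = 0.079 by edgeR. It was 0.46 without KO HFD replicate 1 (adjusted p = 0.0185) and 0.43 without WT HFD replicate 4 (adjusted p = 0.0474), and limma-voom called it at 0.48 (adjusted p = 0.0181). With the lymphoid covariate it was 0.28 and not called (adjusted p = 0.173 by edgeR). Among 12 alternatives and 16 fits with 1 library left out, 4 called Plin2, and the adjusted p ran up to 0.176. Plin1, the main adipocyte coat, had 2476, 2749, 2632 and 2852 CPM in KO HFD, 2583, 2093, 2054 and 2432 in WT HFD, 2275, 2241, 1872 and 2779 in KO chow and 2378, 2230, 2648 and 1904 in WT chow, and all groups overlapped. Its fold change on HFD was 1.08 over both genotypes (95% interval 0.927 to 1.26). Plin4 and Plin3 had fold changes of 1.09 (0.888 to 1.34) and 1.07 (0.943 to 1.22).

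Plin5, the perilipin of oxidative tissues, was the 1 perilipin with a fitted value below 0 in both genotypes. It had 21.4, 42.9, 29.5 and 39.5 CPM in KO HFD against 46.1, 82.9, 51.4 and 49.5 in KO chow, groups that did not overlap, as held in this direction for 8.47% of all genes. In WT it had 29.5, 28.5, 51.9 and 45.2 CPM on HFD against 32.1, 30.7, 26.9 and 74.1 on chow, which overlapped. The log2 fold change was -0.79 ± 0.34 in KO (SE, adjusted p = 0.135 by edgeR) and -0.08 ± 0.33 in WT (adjusted p = 0.897). The difference between these, tested as an interaction, was -0.71 with a 95% interval from -1.72 to 0.31. Leaving out KO chow replicate 2, the library highest in Plin5, gave -0.55 in KO (adjusted p = 0.328). The 2 libraries highest in Plin5, KO chow replicate 2 and WT chow replicate 4, also had the highest sums of 10 thermogenic adipocyte genes, at 943 and 839.8 CPM. Other libraries did not keep this order. WT HFD replicate 3, next in Plin5 at 51.9 CPM, had a sum of 239 CPM. WT chow replicates 1, 2 and 3 had sums of 376, 317 and 349 CPM but Plin5 at 32.1, 30.7 and 26.9 CPM. Across groups that sum was 149 to 255 CPM in KO HFD, 177 to 239 in WT HFD, 342 to 943 in KO chow and 317 to 839.8 in WT chow, and 6 of 10 genes of the list were called lower on HFD over both genotypes. The list holds genes that brown and beige fat cells use, such as Ucp1 and Cidea, and its part in the Plin5 values was not tested.

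Fitm1, the paralog of Fitm2 that is mostly made in muscle, had 5, 5, 9 and 2 counts in KO HFD, 23, 14, 40 and 1 in WT HFD, 36, 1, 1 and 15 in KO chow and 7, 6, 37 and 0 in WT chow. The counts differed widely within each group, and the groups overlapped. The 3 highest counts fell in WT HFD replicate 3, WT chow replicate 3 and KO chow replicate 1, which had muscle sums of 2789, 6169 and 1127 CPM. The order was not the same throughout: WT chow replicate 1 had 7 counts at a muscle sum of 1137 CPM and KO chow replicate 4 had 15 at 1114 CPM. Across groups the muscle sum was 142 to 635 CPM in KO HFD, 189.6 to 2789 in WT HFD, 129 to 1127 in KO chow and 179 to 6169 in WT chow, with no muscle gene at 0. The diet log2 fold change of Fitm1 was -1.24 in KO and 0.63 in WT, and its 95% intervals, -3.81 to 1.32 and -1.73 to 2.98, allow a wide range of values. With a muscle score as covariate the diet log2 fold changes were -0.13 in KO and 0.80 in WT, neither called (adjusted p = 0.934 and 0.43 by edgeR). Fitm1 shares 109 exon bases with Gm15932 on the opposite strand, which had 1 to 9 counts.

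**Figure D3:**
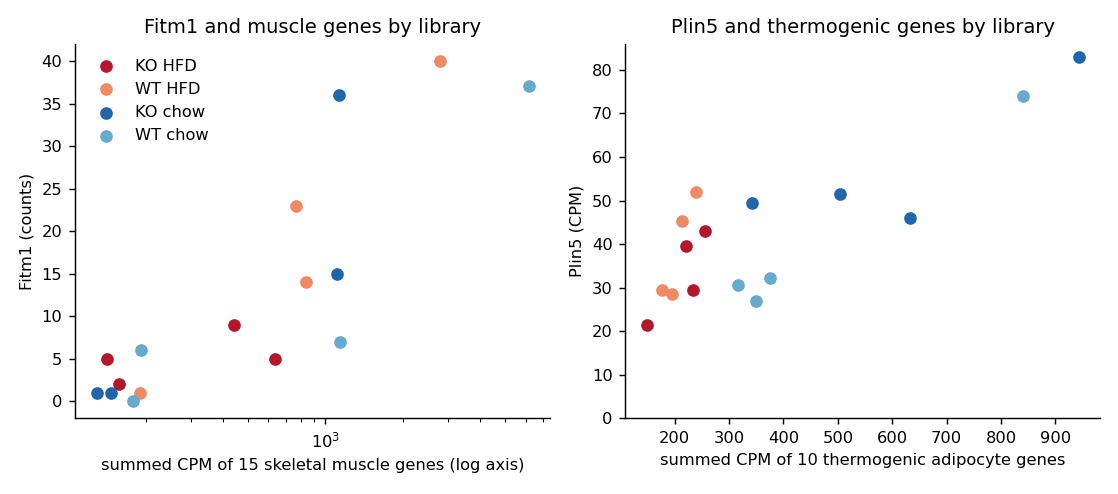
Left, Fitm1 counts against the summed CPM of 15 skeletal muscle genes (log axis); right, Plin5 CPM against the summed CPM of 10 thermogenic adipocyte genes; each point is a library. The libraries with 36 to 40 Fitm1 counts have muscle sums of 1127 CPM or more, and the 2 with the highest Plin5 have thermogenic sums of 839.8 and 943 CPM. WT HFD replicate 3, next in Plin5 at 51.9 CPM, has a thermogenic sum of 239 CPM.

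**Figure D4:**
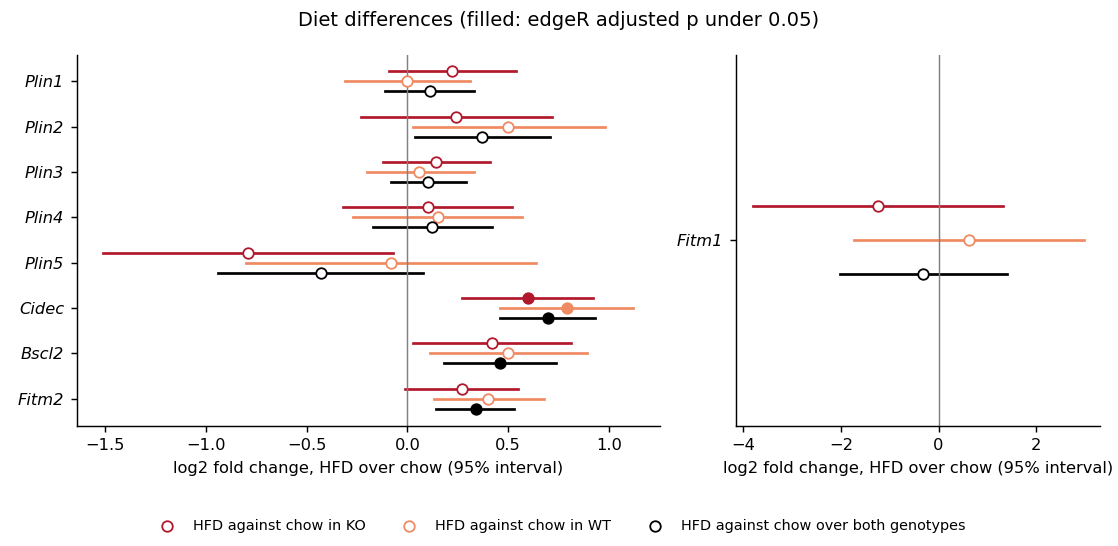
Log2 fold change of HFD over chow with 95% intervals in KO, in WT and over both genotypes, with filled symbols where the edgeR adjusted p was under 0.05; Fitm1 is drawn on its own wider axis. Filled symbols appear for Cidec in all 3 comparisons and for Bscl2 and Fitm2 over both genotypes.

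The genotype comparison asks whether loss of Kmo altered these genes. No member was called in KO against WT on HFD, on chow or over both diets, nor in the interaction of genotype and diet, and none had an unadjusted p under 0.05 in edgeR; DESeq2 and limma-voom also called 0. Across all genes, edgeR called 1, Kmo itself, in each genotype comparison (0.00604%) and 0 in the interaction, with 1.14%, 1%, 0.997% and 1.13% of genes at an unadjusted p under 0.05 on HFD, on chow, over both diets and in the interaction. Cidec averaged 3675 ± 587 CPM in KO HFD and 3906 ± 345 in WT HFD (SD, n = 4 each), a fold of 0.941 (95% interval 0.75 to 1.18), and 2430 ± 373 in KO chow and 2253 ± 208 in WT chow, a fold of 1.08 (0.86 to 1.35). Plin1 averaged 2677 ± 161 CPM in KO HFD and 2290 ± 259 in WT HFD, where 3 of 4 KO libraries exceeded all WT libraries (1.17-fold, 0.941 to 1.45). Over both diets the intervals of KO over WT were 0.928 to 1.26 for Plin1, 0.757 to 1.2 for Plin2, 0.906 to 1.18 for Plin3, 0.865 to 1.3 for Plin4 and 0.858 to 1.18 for Cidec. They were 0.824 to 1.21 for Bscl2, 0.923 to 1.21 for Fitm2, 0.773 to 1.56 for Plin5 and 0.16 to 1.78 for Fitm1. With 4 libraries a group, each interval holds the differences compatible with these data and is not a limit of detection. In the authors' deposited table for HFD, Plin1 had a p-value of 0.0356 and Fitm1 0.0256, both with an adjusted p of 1, and in their table for chow the smallest p-value of a member was 0.157, for Plin5.

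**Figure D5:**
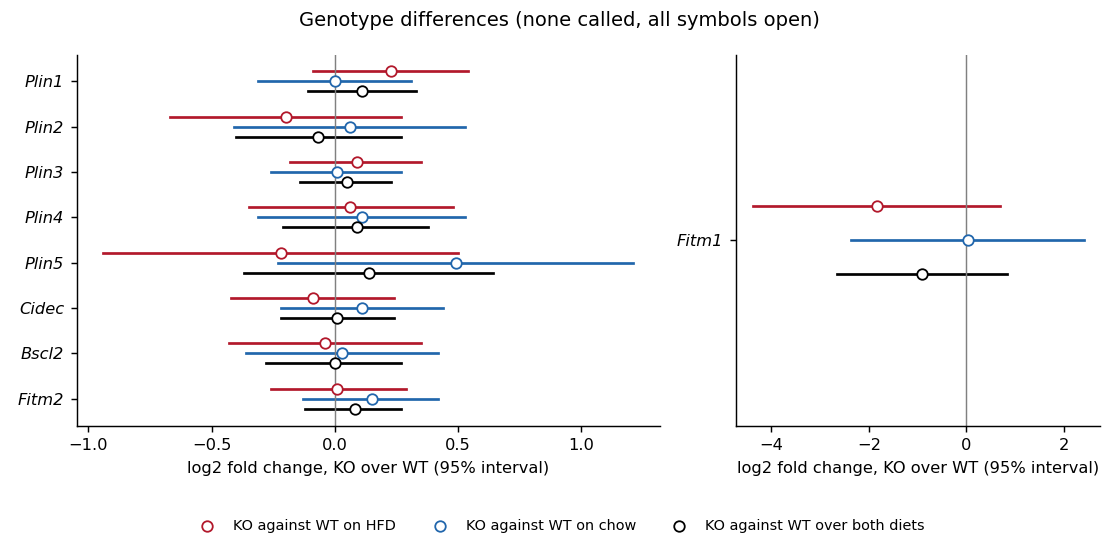
Log2 fold change of KO over WT with 95% intervals on HFD, on chow and over both diets; no symbol is filled because no member was called. Leaving out Fitm1, on its own axis, values run from -0.22 to 0.49, both for Plin5.

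Other genes of the droplet were set beside the members in 4 lists, given here for HFD against chow over both genotypes, where 17.1% of all genes were called higher and 16% lower; no gene of any list was called between genotypes. In the list of other droplet-bound proteins, 16 of 18 were tested, 6 rose and 5 fell (median log2 fold change 0.09). Cavin1, a caveola coat protein, rose to 2205 ± 281 CPM on HFD, against 1005 ± 237 on chow (SD, n = 8 each), adjusted p = 9.82e-05. Hilpda, an inhibitor of adipose triglyceride lipase, rose to 37.7 ± 11.7 against 9.85 ± 5.01 CPM, and Vim, an intermediate filament protein, to 2041 ± 209.9 against 1259 ± 303 CPM. Cidea, the CIDE family relative of Cidec, fell to 27.4 ± 7.2 CPM on HFD, against 176 ± 97.2 on chow, adjusted p = 1.41e-04 by edgeR, the opposite direction to Cidec; it is also 1 of the 10 thermogenic genes above.

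In the list of lipases and their control, all 12 were tested, 4 rose and 3 fell. Mgll, monoacylglycerol lipase, rose to 2207 ± 251 CPM on HFD, against 1408 ± 222 on chow, and Aqp7, a glycerol channel, to 223 ± 29.1 against 167 ± 28.6 CPM. The beta-adrenergic receptor genes Adrb3 and Adrb1 fell, Adrb3 to 213 ± 77 CPM on HFD against 414 ± 62.3 on chow and Adrb1 to 9.61 ± 3.01 against 19 ± 8.94. In the list of droplet formation and contact, 2 of 19 rose and 2 fell: Dgat2, which makes triglyceride, and Pcyt1a, which makes phosphatidylcholine, were higher (3811 ± 732 against 2637 ± 644 CPM and 95 ± 3.96 against 72.4 ± 9.01 CPM), and Agpat2 and Lpin3 were lower. Of 10 transcription regulators, 2 rose and 4 fell. Ppara fell to 6.51 ± 1.13 CPM on HFD against 19.1 ± 4.77 on chow, Srebf1 to 416 ± 63.6 against 584 ± 88.5, Pparg, a main driver of adipocyte genes, to 200.3 ± 22.9 against 255 ± 49.3, and Ppargc1a to 11.4 ± 3.06 against 16 ± 3.45 CPM.

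The members were also described by the genes whose log2 CPM ran most like theirs over the 16 libraries, which share the diet groups, lanes and other-tissue RNA. For Cidec these were Copg2, Elp3 and Bcl2l13 (r = 0.983, 0.978 and 0.976), for Bscl2 Rexo2, Btd and Cyb5b (0.977, 0.965 and 0.961), and for Fitm2 Vapa, Ufm1 and Ube2k (0.969, 0.959 and 0.958). Plin1 was most like Ank2, Ffar4 and Aoc3 (0.907, 0.890 and 0.890), Plin2 like Lss, Ppp1r3d and Nup50 (0.944, 0.915 and 0.913), Plin3 like Adamts1, Dnajc25 and Crtap (0.892, 0.885 and 0.884) and Plin4 like Art3, Lims2 and Cobll1 (0.944, 0.921 and 0.911). Plin5 was most like mt-Rnr2, Hadhb and Uqcrc1 (0.873, 0.844 and 0.839), the last 2 of which encode mitochondrial proteins. Fitm1 was most like Cacng1, Ckmt2 and Casq1 (0.944, 0.932 and 0.932), genes of muscle.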

How the data were processed

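Poly-A RNA was sequenced from 16 samples, 4 in each group, with a stranded kit and paired reads, per the labels' protocols. The submitters' processing notes name STAR 2.7.3a and the build GRCm38.p6. Per the file headers, featureCounts 2.0.3 assigned read pairs to Ensembl 102 genes ignoring strand, and the authors deposited these raw counts. The authors' deposited tables hold shrunken log2 fold changes and p-values of KO against WT from DESeq2, whose version is not given in the sources used here.

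Symbols came from the reference table for 55141 of 55487 genes. filterByExpr kept 16549 genes, all 9 members among them. edgeR 4.0.16 in R 4.3.3 fitted the 4 group means to all 16 libraries (TMM factors, robust quasi-likelihood), and p-values were adjusted over all tested genes with a threshold of 0.05. Log2 CPM for likeness used a prior count of 2. Alternatives used DESeq2 1.42.0, limma 3.58.1, other scaling and filters, covariates, lanes, a replicate block and each library left out; simulated counts tested the model. Named genes were the 9 members, up to 4 per list (called ones by adjusted p) and the 3 most alike genes of each member. Members and lists were chosen with earlier results of these data known. Each sample has its own code in the labels, which do not state that a code is an animal, so p-values measure the spread between these samples. Libraries of a group differed by more than counting noise (chi-square per gene 9.82 to 78.85).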

Additional observations from a re-analysis of the deposited data

Results flagged for a closer look

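The 9 members in each of the 4 groups gave 36 sets of 4 values, which share libraries and are not independent. In 2 of the 36 sets 1 library lay far from the other 3 of its group in log2 CPM. Chance gives about 1 in 20, so 2 of 36 is near that rate. Bscl2 in KO HFD replicate 1, at 252 CPM, was the lowest of its group, and its gap to the next library was 0.876 of the group's range. That library also had the fewest read pairs, came from lane 4 alone, and had the highest T cell and B cell sums of its group (169.9 and 1819 CPM, against 12.4 to 15.1 CPM of T cell genes in the other 3). Plin3 in KO chow replicate 3, at 65.8 CPM, was the lowest of its group with a gap of 0.845 of the range; it had the highest T cell sum of its group, at 398 CPM.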

How the results depend on the processing

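Members called in the WT diet comparison numbered 1, but 2 with DESeq2, 3 with limma-voom, 2 with the lymphoid covariate and 0 in merged libraries only (1 to 3 on leaving out 1 library). In the KO diet comparison they numbered 1, but 3 with limma-voom, 0 with the replicate block and 0 with the compared groups only (0 to 2 on leaving out 1 library); the causes were not tested. Replicate numbers did not pair the samples: 9 of 24 same-number pairs correlated over 0.1 (-0.693 to 0.553), and the authors' sample sheet numbers the chow samples differently from the labels used here, so the block is not a pairing of animals. Over both genotypes the count was 3 to 4, not always of the same genes, since in merged libraries Fitm2 lost its call (adjusted p = 0.062) and Plin2 gained one (0.0475). Between genotypes 0 members were called, and 0 in the interaction, under every alternative. All genes called in the WT diet comparison ran from 225 of 17230 tested in merged libraries to 2778 of 16549 with DESeq2, against 1957 of 16549. There limma-voom called 2531 and the lymphoid covariate 2083. In the KO diet comparison they ran from 745 of 16888 without KO HFD replicate 2 to 3441 of 16549 with limma-voom, against 2071 of 16549. The replicate block called 1126 genes there, and the fit of the compared groups only 1468 of 15327. Upper-quartile factors gave 46.7% of calls higher in the WT diet comparison, against 58.4%, with the median of all genes at -0.09. The share was 45.2% against 58.2% in KO and 41.2% against 51.7% over both genotypes. Leaving out the 2 libraries richest in muscle RNA was chosen after seeing the data. Of 1797 alternative log2 fold changes, 126 took the other sign, 0 of them called in either fit. In the WT diet comparison, Plin1 (0.00) had -0.01 with relative log expression factors, DESeq2, the stricter filter, the replicate block and the compared groups only, -0.05 with upper-quartile factors and limma-voom, -0.00 with the muscle covariate and -0.10 with the lymphoid covariate. Plin3 (0.06) had -0.02 with the lymphoid covariate. Plin5 (-0.08) had 0.10 with limma-voom and 0.06 with the muscle covariate. In the diet comparison over both genotypes, Fitm1 (-0.31) had 0.35 with limma-voom, 0.33 with the muscle covariate and 0.14 with the 2 muscle-rich libraries left out. In KO against WT on chow, Plin1 (0.00) had -0.00 with relative log expression factors, DESeq2, limma-voom and the stricter filter, -0.01 with the replicate block and merged libraries only and -0.02 with the lymphoid covariate and the single-lane term. Plin2 (0.06) had -0.00 with the single-lane term and -0.01 with merged libraries only. Plin3 (0.01) had -0.01 with the lymphoid covariate and -0.02 with the single-lane term and merged libraries only. Bscl2 (0.03) had -0.02 with the single-lane term and -0.04 with merged libraries only. Fitm1 (0.03) had -0.01 with the single-lane term and -0.21 with merged libraries only. In KO against WT on HFD, Plin2 (-0.20) had 0.05 with merged libraries only. Plin4 (0.06) had -0.02 with merged libraries only and -0.01 with the 2 muscle-rich libraries left out. Plin5 (-0.22) had 0.36 with merged libraries only. Bscl2 (-0.04) had 0.02 with limma-voom, 0.04 with the muscle covariate, 0.13 with merged libraries only and 0.01 with the 2 muscle-rich libraries left out. Fitm2 (0.01) had -0.01 with the single-lane term. In KO against WT over both diets, Plin2 (-0.07) had 0.02 with merged libraries only and 0.08 with the 2 muscle-rich libraries left out. Plin5 (0.14) had -0.06 with the muscle covariate. Cidec (0.01) had -0.01 with the lymphoid covariate and -0.04 with the single-lane term. Bscl2 (-0.00) had 0.05 with limma-voom, 0.00 with the replicate block, 0.07 with the muscle covariate, 0.04 with merged libraries only and 0.12 with the 2 muscle-rich libraries left out. Fitm1 (-0.91) had 0.38 with the muscle covariate and 0.19 with the 2 muscle-rich libraries left out. In the interaction, Plin2 (-0.26) had 0.05 with merged libraries only. Plin3 (0.08) had -0.08 with the 2 muscle-rich libraries left out. Plin4 (-0.04) had 0.10 with limma-voom and 0.00 with the lymphoid covariate. Bscl2 (-0.07) had 0.17 with merged libraries only. Fitm2 (-0.13) had 0.02 with merged libraries only. On leaving out 1 library, log2 fold changes that took both signs ran as follows. In the WT diet comparison Plin1 -0.08 to 0.08, Plin3 -0.00 to 0.21, Plin5 -0.25 to 0.37 and Fitm1 -0.02 to 2.17. In the KO diet comparison Plin4 -0.01 to 0.28. In the diet comparison over both genotypes Fitm1 -0.63 to 0.46. In KO against WT on chow Plin1 -0.10 to 0.09, Plin2 -0.06 to 0.16, Plin3 -0.06 to 0.15, Plin4 -0.06 to 0.23, Bscl2 -0.05 to 0.23 and Fitm1 -1.18 to 1.57. In KO against WT on HFD Plin4 -0.01 to 0.20, Cidec -0.17 to 0.01, Bscl2 -0.10 to 0.10 and Fitm2 -0.04 to 0.07. In KO against WT over both diets Plin2 -0.13 to 0.03, Cidec -0.03 to 0.06 and Bscl2 -0.05 to 0.10. In the interaction Plin3 -0.06 to 0.14, Plin4 -0.17 to 0.13 and Bscl2 -0.27 to 0.06.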
